A study of Homo sapiens with 30 samples.

Results

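Vimentin and nonmuscle myosin II mRNAs were examined through 7 genes taken by symbol, VIM, MYH9, MYH10, MYL6, MYL9, MYL12A and MYL12B, of 62703 genes with input counts. An iCLIP peak was given to a gene when its centre lay within it on the same strand. In the list of full-length LARP6 (FL) the 7 genes held 69 of 14334 peaks. With the deletion variants they held 87 of 17180 (ΔNTR), 64 of 15870 (ΔCTR), 14 of 636 (ΔLa-module) and 4 of 291 peaks (ΔNTD). VIM and MYH9 held most of them, MYL6, MYL9, MYL12A and MYL12B held 0 to 5 each, and MYH10 held none in any list.

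Vimentin, encoded by VIM, is a type III intermediate filament protein typical of mesenchymal cells and of many glial tumours. Nonmuscle myosin II is the motor of contractile actin filaments and is built from a pair of heavy chains (MYH9 for the IIA form, MYH10 for the IIB form), essential light chains (MYL6) and regulatory light chains (MYL9, MYL12A, MYL12B). LARP6 binds RNA and is best known from collagen mRNAs, and filaments of both kinds are known to associate with it and with these mRNAs. The question addressed here was whether LARP6 also contacts the mRNAs that encode these filaments, and which parts of LARP6 those contacts depend on.

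The cells were U-87 MG, an established human glioblastoma line. In 5 pooled stable lines a lentiviral, doxycycline-inducible and codon-optimised LARP6 with an N-terminal myc tag was present, either as FL or lacking the N-terminal region (ΔNTR), the C-terminal region (ΔCTR), the RNA-binding La-module (ΔLa-module) or the N-terminal region and La-module together (ΔNTD). Parental cells carried no tagged LARP6. The lines were selected with puromycin and not cloned. All groups, parental cells included, received 60 ng/mL doxycycline for 24 h, and no depletion of endogenous LARP6 is described for these samples. Since the transgene is codon-optimised, the LARP6 counts do not check the labels. iCLIP, in which UV-crosslinked RNA is recovered with the anti-myc antibody and crosslink positions are sequenced, was done on 3 samples per group. Each variant is represented by 1 peak list that pools its 3 samples and from which parental peaks had been subtracted, so no spread between replicates and no test could be had. The parental peaks were not analysed here, and whether the subtraction removed peaks of a member was not tested. Total RNA of each line was sequenced in 1 paired-end library of 150 nt reads (PE150), with 25027075 to 28692476 gene counts per library. Each line also had 1 single-end input library of 50 nt reads (SE50). It captured little of the VIM and MYH9 mRNAs and served only as an alternative input.

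The score of a peak is the number the authors' peak caller gave it, summed over the replicates, and the lowest score in every list was 3. Intervals are 95% counting intervals that treat scores and peaks as counts. They cover counting error only, and do not cover differences between cultures.

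The sequences under the highest FL peaks of each member are shown first, since these peaks had the highest summed scores. They are the reference bases (GRCh38) of the central 30 nt, or of the whole peak where it was narrower, written 5′ to 3′ on the strand of the mRNA, with runs of 5 or more C or T in capitals. VIM lies on the plus strand of chromosome 10 and MYH9 on the minus strand of chromosome 22.
VIM start codon, exon 2, peak chr10:17229378-17229471, score 56: aCCCTCCgcagccatgtccaccaggtccgt
VIM CDS, exon 9, peak chr10:17236292-17236381, score 48: tgatacccactcaaaaaggacaCTTCTgat
VIM CDS, exon 5, peak chr10:17233786-17233873, score 41: atcgatgtggatgTTTCCaagcctgacctc
MYH9 3'UTR, exon 41, peak chr22:36281783-36281815, score 22: gcggCCCTCCCaggcgatcttgtgtctact
MYH9 3'UTR, exon 41, peak chr22:36282224-36282279, score 18: agtcgtcagCCTCCCTgacgtctgccacca
MYH9 3'UTR, exon 41, peak chr22:36281851-36281875, score 12: aaatatatttaatggttaagggact
MYL6 3'UTR, exon 7, peak chr12:56161489-56161508, score 11: gCTTTCTTgtctcagcaact
MYL9 3'UTR, exon 4, peak chr20:36549302-36549334, score 3: cacccgtccataccagCTCCCTgcccatga
MYL12A 5'UTR, exon 1, peak chr18:3247890-3247911, score 4: gaTTCTCgtagctgtgccgggt

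The VIM start-codon window holds the first atg of the protein, in the peak of vimentin mRNA with the highest FL score. Of these 9 stretches, 8 held a C or T run and 1, in the MYH9 3'UTR, held none. Over the 30 nt around the centre of every FL member peak, 45 of 69 (65.2%, 53.4 to 75.4) held such a run, against 53.8% of all FL peaks. VIM peaks held one in 18 of 24 cases (75.0%, 55.1 to 88.0), where 49.9% of all 30 nt windows of the VIM mRNA did. MYH9 peaks held one in 22 of 39 cases (56.4%, 41.0 to 70.7), where 31.6% of the windows of its mRNA did. In the ΔNTR and ΔCTR lists 11 of 25 and 10 of 17 VIM peaks held one, and the intervals (26.7 to 62.9 and 36.0 to 78.4%) included the share of its mRNA. For MYH9 it was 26 of 56 and 22 of 39, and both intervals (34.0 to 59.3 and 41.0 to 70.7%) lay above the share of its mRNA. Over all peaks of these lists the shares were 54.6 and 52.4%. By region, 46.2% of all FL peaks in the CDS and 59.5% of those in the 3'UTR held a run. The windows of each mRNA were not matched to the peaks by region, and 13 of the 39 FL peaks of MYH9 lay in its 3'UTR. Nor were peaks centred outside the exons of the mRNA left out, 1 FL peak of MYH9 being intronic.

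VIM, MYH9, MYL6, MYL9 and MYL12A had at least 1 peak in the FL list. A peak was common among genes as abundant as these: 36.1% of protein-coding genes with at least 10 PE150 counts had one, and 82.8% of those at 100 CPM or more, CPM being counts scaled to a library total of 1000000. Of the 5 members above 100 CPM, VIM, MYH9, MYL6 and MYL12A had a FL peak and MYL12B had none. In the ΔNTR and ΔCTR lists the same 5 members had peaks, these being VIM, MYH9, MYL6, MYL12A and MYL12B, beside 36.8% and 38.6% of genes with 10 counts and 85% and 87% of those at 100 CPM. In the ΔLa-module list VIM and MYH9 had peaks, beside 3.45% and 11.8% of genes, and in the ΔNTD list VIM and MYL6, beside 1.85% and 5.93%. Having a peak was thus ordinary for the abundant members in the first 3 lists. In each of the last 2 lists, 2 of the 5 abundant members had one.

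The summed score of the 7 members was 749 in the FL list, and 808, 613, 49 and 15 in those of ΔNTR, ΔCTR, ΔLa-module and ΔNTD. As a share of all scores this was 0.729% (0.678 to 0.783), 0.869% (0.811 to 0.931) and 0.516% (0.476 to 0.559) for FL, ΔNTR and ΔCTR. The same genes took 1.10, 1.2 and 1.13% of the PE150 counts of those lines, so the mRNAs of these filaments held less of the score than of the RNA. In the ΔLa-module list the order was the other way, with 2.11% (1.57 to 2.78) of the score against 1.19% of the input. VIM held 42 of these 49 score units. In that list 76.7% of peaks had the lowest score of 3, and 3.45% of protein-coding genes with 10 counts had a peak. Its score thus came from few genes while the input share is of all genes, and this was not adjusted for. For ΔNTD the share of 1.5% (0.843 to 2.46) had an interval that included the 1.17% of its input. Per 1000 input counts the members held 2.44, 2.69 and 2.02 score units in FL, ΔNTR and ΔCTR, beside 3.68, 3.71 and 4.41 for the lists as wholes.

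**Figure D1:**
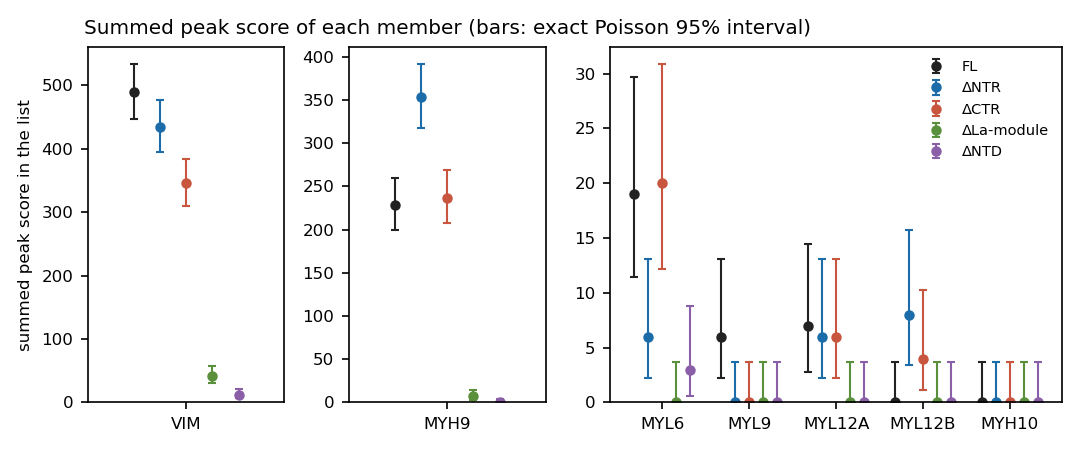
Summed peak score of each of the 7 members in the 5 pooled lists (vertical axes linear, one scale per panel; points are 1 value per list, bars exact Poisson 95% intervals). VIM goes from 489 in FL to 346 in ΔCTR, MYH9 is highest in ΔNTR at 353, and the light chains stay at 20 or below.

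VIM mRNA carried the highest score of the set in all 5 lists. Its 24 FL peaks had a summed score of 489, the 25 ΔNTR peaks 435, the 17 ΔCTR peaks 346, the 12 ΔLa-module peaks 42 and the 3 ΔNTD peaks 12. By summed score VIM ranked 8 among the genes of the FL list, and 13, 30, 2 and 5 in the ΔNTR, ΔCTR, ΔLa-module and ΔNTD lists, while by PE150 counts it ranked 3 in the FL line and 2 in the other 4. Set against its abundance VIM was not a strong target of FL, with 2.48 score units per 1000 counts, above 34.9% of the 4519 protein-coding genes with a FL peak and 48.7% of those at 100 CPM or more. The value was 2.18 for ΔNTR and 1.75 for ΔCTR, above 35.2 and 28.1% of the genes at 100 CPM or more.

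Against FL, the share of the list held by VIM was 0.984 times as large for ΔNTR (0.862 to 1.12) and 0.612 times for ΔCTR (0.532 to 0.704). After subtracting the change of its input the log2 change was -0.20 for ΔNTR and -0.76 for ΔCTR. Among the 803 (ΔNTR) and 905 genes (ΔCTR) whose scores in FL and the variant together came to 50 or more, the medians were -0.01 and -0.02 and VIM stood at percentiles 42.5 and 10.6. The interval of the ΔNTR share ratio included 1 and that of ΔCTR did not. Neither change passed 2-fold, which 13% of genes did downward and 7.97% upward for ΔNTR, and 5.97 and 5.52% for ΔCTR. With the single-end 50 nt input (SE50) in place of PE150 the ΔCTR value of VIM was -1.42. In the FL line VIM had 47.4 CPM in SE50 against 7058 in PE150. SE50 thus captured little of this mRNA and is no like measure of its level.

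The fall of the raw ΔCTR score from that of FL lay mainly at the ends of the VIM message. The 19 sites obtained by merging overlapping peaks of all lists fell on exons 2 to 10, except 1 intronic site of ΔLa-module, and none was in exon 1, which is untranslated. At the 7 sites occupied in FL, ΔNTR and ΔCTR alike the scores were 337, 320 and 314, which made ratios to FL of 0.950 (0.812 to 1.11) and 0.932 (0.796 to 1.09). Over all genes the sites occupied in the 3 lists numbered 3338, and the ratios of their scores to FL were 0.693 and 1.12. The VIM interval of ΔNTR lay above the all-gene ratio and that of ΔCTR below it. Relative to the list, the ΔCTR score of VIM was thus also lower at the common sites.

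At the 5′ end, 2 FL peaks sat next to each other. The first, chr10:17229322-17229374, was in the 5'UTR with its centre at -75 nt from the start codon, and scored 30 in FL, 27 in ΔNTR and 3 in each of ΔLa-module and ΔNTD. The second was the start-codon peak, and the merged site around it scored 56 (FL), 40 (ΔNTR) and 6 (ΔLa-module). The ΔCTR list had no peak on either one, while the ΔLa-module list had peaks on both. Parental peaks had been subtracted from each list, and whether this removed a ΔCTR peak there was not tested. The nearest ΔCTR peak lay in the site chr10:17229494-17229543, inside the coding region, with a score of 12 beside 8 in ΔNTR and 0 in FL.

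Strong FL peaks with no ΔCTR peak on them were rare. Of 452 FL peaks with a score of 30 or more, a limit chosen after the VIM values were seen, 449 (99.3%, 98.1 to 99.8) were overlapped by a ΔCTR peak. Of the 3 that were not, 2 were these neighbouring VIM peaks, and the other was an intronic peak of EYA4. The FL list as a whole also had more 5'UTR signal than the ΔCTR list, with summed 5'UTR scores of 4199 and 2864, a ratio of 0.682 (0.650 to 0.715). In MYH9 the 5'UTR scores were 14 in FL and 3 in ΔCTR, from 3 peaks and 1 peak, a ratio of 0.214 (0.0395 to 0.768).

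At the 3′ end, the VIM 3'UTR held 3 FL peaks, with scores of 18, 21 and 3. ΔNTR had 1 peak there, with a score of 5, and ΔCTR, ΔLa-module and ΔNTD had none. The 3'UTR score of VIM was therefore 42, 5 and 0 in FL, ΔNTR and ΔCTR, a ΔNTR ratio of 0.119 (0.0368 to 0.300), where the 3'UTR ratio of the whole list was 0.898 for ΔNTR and 1.24 for ΔCTR. The CDS scores were 417, 403 and 346, with ratios of 0.966 (0.841 to 1.11) and 0.830 (0.717 to 0.959). Those of all CDS peaks of the lists were 0.955 and 1.16.

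**Figure D2:**
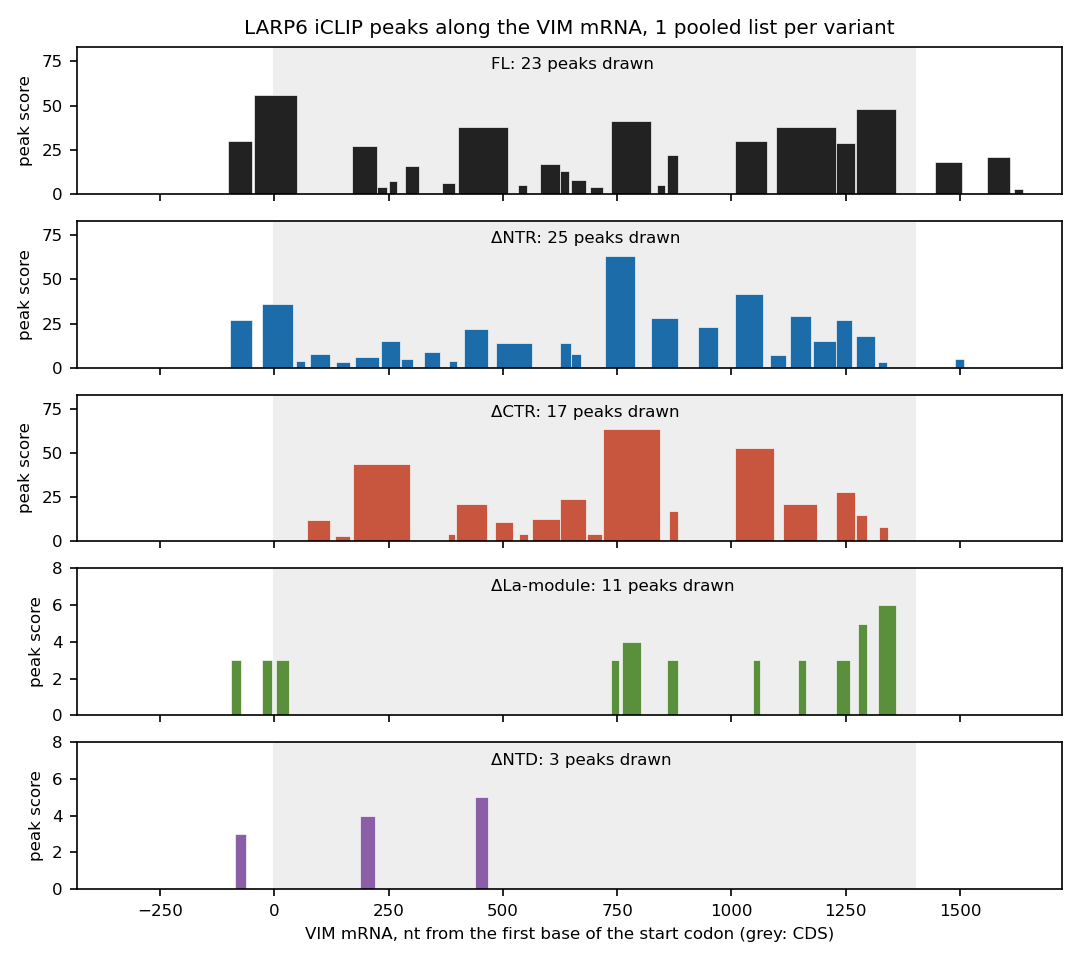
Peaks along the VIM mRNA in the 5 lists (horizontal axis, nt from the first base of the start codon, CDS in grey; bar width is peak width and bar height peak score, on a smaller scale in the lower 2 panels; 1 FL and 1 ΔLa-module peak centred outside the exons shown are not drawn). The ΔCTR panel has no bar before the start codon, on it or in the 3'UTR, while the ΔLa-module panel has bars at the start codon and late in the CDS.

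Within the coding region the peaks of VIM were dense in all 3 lists. Per 100 nt the score of the exonic FL peaks was 29.6 in the CDS, 13 in the 3'UTR and 6.96 in the 5'UTR. Exon 8, of 44 nt, had scores of 29, 27 and 28 in FL, ΔNTR and ΔCTR, and exon 5 had 68, 91 and 81. Exons 3 and 6 were exceptions. Exon 6 had 1 ΔNTR peak of score 23 (chr10:17234737-17234781) and none in any other list, and exon 3 had scores of 17 in FL and 13 in ΔCTR and no ΔNTR peak.

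The ΔLa-module list, which held few peaks anywhere, had VIM as its gene with the second highest score. Of its 12 VIM peaks, 11 (91.7%, 64.6 to 98.5) lay on a FL peak, against 25% of all ΔLa-module peaks. From the other side, 8 of the 24 FL peaks of VIM (33.3%, 18.0 to 53.3) were overlapped by a ΔLa-module peak, against 1.08% of all FL peaks and 5.13% of those with a score of 10 or more. The FL peaks of VIM had a summed width of 1204 nt, beside an mRNA of 2154 nt. An overlap is therefore likelier there than in a gene with few peaks, and this was not adjusted for. The residual VIM peaks were weak, 9 of 12 having the lowest score of 3, and the highest was 6. The highest stood in exon 9, where the merged site scored 48, 21, 23 and 11 in FL, ΔNTR, ΔCTR and ΔLa-module. Against its input VIM held 0.189 score units per 1000 counts in that list, beside 0.081 for the list as a whole. This was above 22.2% of the 279 genes at 100 CPM or more that had a peak. That rank covers only genes with a peak, where the lowest score of 3 weighs more in less abundant genes.

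To show where such residual peaks fell, bases common to a peak of FL, ΔNTR, ΔCTR and ΔLa-module are given, again with C or T runs in capitals. The first begins with 3 bases before exon 8, and the others lie inside exons 5 and 9.
VIM exon 8, chr10:17235843-17235872: taggaTTTCTCTgCCTCTTCCaaaCTTTTC
VIM exon 5, chr10:17233811-17233838: ccaaatcgatgtggatgTTTCCaagcct
VIM exon 9, chr10:17236298-17236316: taatctggattcaCTCCCT
The exon 8 stretch had 73.3% C or T, against 48.3% over the VIM mRNA. Others of the 8 common stretches had fewer, down to 30% in exon 5, so a pyrimidine run was no shared feature of them.

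MYH9 mRNA, which encodes the heavy chain of nonmuscle myosin IIA, had more peaks than VIM but weaker ones. It had 39 FL peaks with a summed score of 228, 56 ΔNTR peaks with 353, 39 ΔCTR peaks with 237, 2 ΔLa-module peaks with 7 and no ΔNTD peak. The highest single scores were 22, 24 and 21 in the first 3 lists, where VIM reached 56, 63 and 64. Per 1000 input counts MYH9 held 2.69, 4.46 and 2.87 score units, above 52.7, 65.3 and 46.7% of genes at 100 CPM or more with a peak.

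The share of the list held by MYH9 was higher in ΔNTR than in FL, by 1.71 times (1.45 to 2.03). The ratio of the raw scores was 1.55 (1.31 to 1.84), where that of the whole lists was 0.904. The log2 change after input was 0.71, at percentile 86.7 of the 803 genes, short of 2-fold. For ΔCTR relative to FL the share ratio was 0.900 (0.747 to 1.08), an interval that included 1, and the log2 change was -0.17, at percentile 38.1.

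The additional ΔNTR score of MYH9 lay mainly in the coding region. CDS scores were 93 in FL, 194 in ΔNTR and 102 in ΔCTR, so that the ΔNTR ratio was 2.09 (1.62 to 2.7) beside 0.955 for all CDS peaks of the lists. The 3'UTR scores were 117, 144 and 128, with a ΔNTR ratio of 1.23 (0.958 to 1.58). VIM, at 0.966 in the CDS, had no such excess, and the intervals of the 2 genes there did not overlap.

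Many ΔNTR peaks of MYH9 lay next to FL peaks. Of the 56 ΔNTR peaks, 29 lay on no FL peak, and 18 of these were within 100 nt of one. That is 46.2 per 100 FL peaks of the gene, against 19.7 per 100 over all genes and 12.5 for VIM. In VIM only 4 of 25 ΔNTR peaks lay on no FL peak, and 3 of these were within 100 nt of one. Over the whole ΔNTR list, 2829 of 12017 such peaks were. These rates depend on the number of variant peaks and on how densely FL peaks line a gene, which was not adjusted for. For ΔCTR the MYH9 count was 10, or 25.6 per 100, against 15.7 over all genes and 8.33 for VIM. Of the 68 merged MYH9 sites, 14 were occupied in the 3 lists, 16 in ΔNTR alone, 8 in FL alone and 8 in ΔCTR alone. At the 14 common sites the scores were 131, 154 and 159, with ratios of 1.18 (0.925 to 1.5) and 1.21 (0.957 to 1.54), beside 0.693 and 1.12 over all genes. Both MYH9 intervals included 1, and that of ΔNTR lay above the all-gene ratio.

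**Figure D3:**
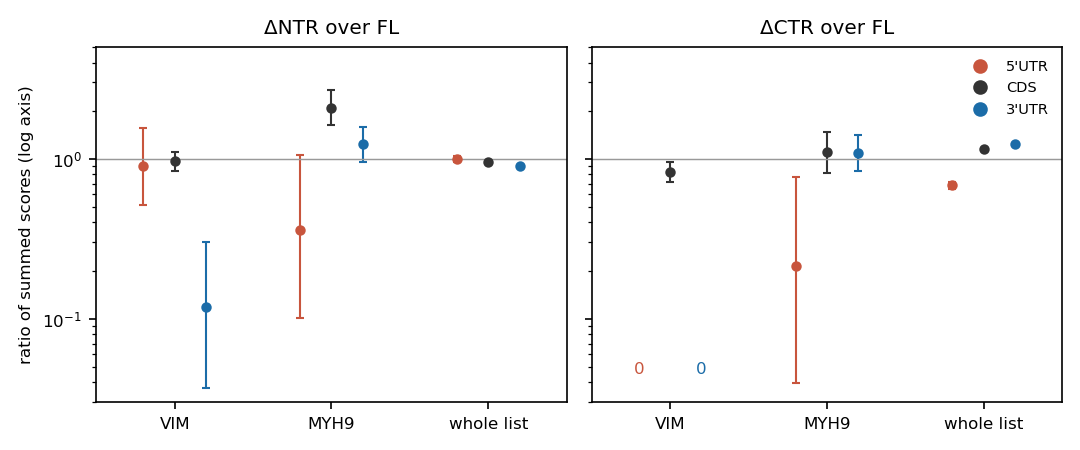
Ratio of summed scores to FL by region for VIM, MYH9 and all peaks of the lists (log axis; bars, 95% exact binomial intervals; 0 marks a region with no score in the variant). The CDS point of MYH9 in ΔNTR is at 2.09 and the 3'UTR point of VIM at 0.119, while VIM has no UTR score in ΔCTR.

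The last of the 41 exons of MYH9, of 1506 nt, which holds the 3'UTR, had 14 of the FL peaks and 53.6% of the exonic FL score, and 46.1 and 56.7% of that of ΔNTR and ΔCTR. Exons with at least 1 peak numbered 21, 26 and 21. Per 100 nt the FL score was 7.78 in the 5'UTR, 1.58 in the CDS and 8.43 in the 3'UTR, where that of VIM was highest in the CDS. Exon 41 as a whole had 7.97 per 100 nt, and exons 1, 4, 6, 8 and 18, of 28 to 161 nt, had more, from 8.57 to 10.7, on 1 to 3 peaks each. The merged site with the highest ΔNTR score, chr22:36282465-36282651, scored 21, 28 and 14 in FL, ΔNTR and ΔCTR. Near the far end of the 3'UTR, chr22:36281354-36281464 scored 4, 24 and 11. The 2 ΔLa-module peaks of MYH9, in exons 19 and 40, had scores of 3 and 4 and lay on no FL peak.

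**Figure D4:**
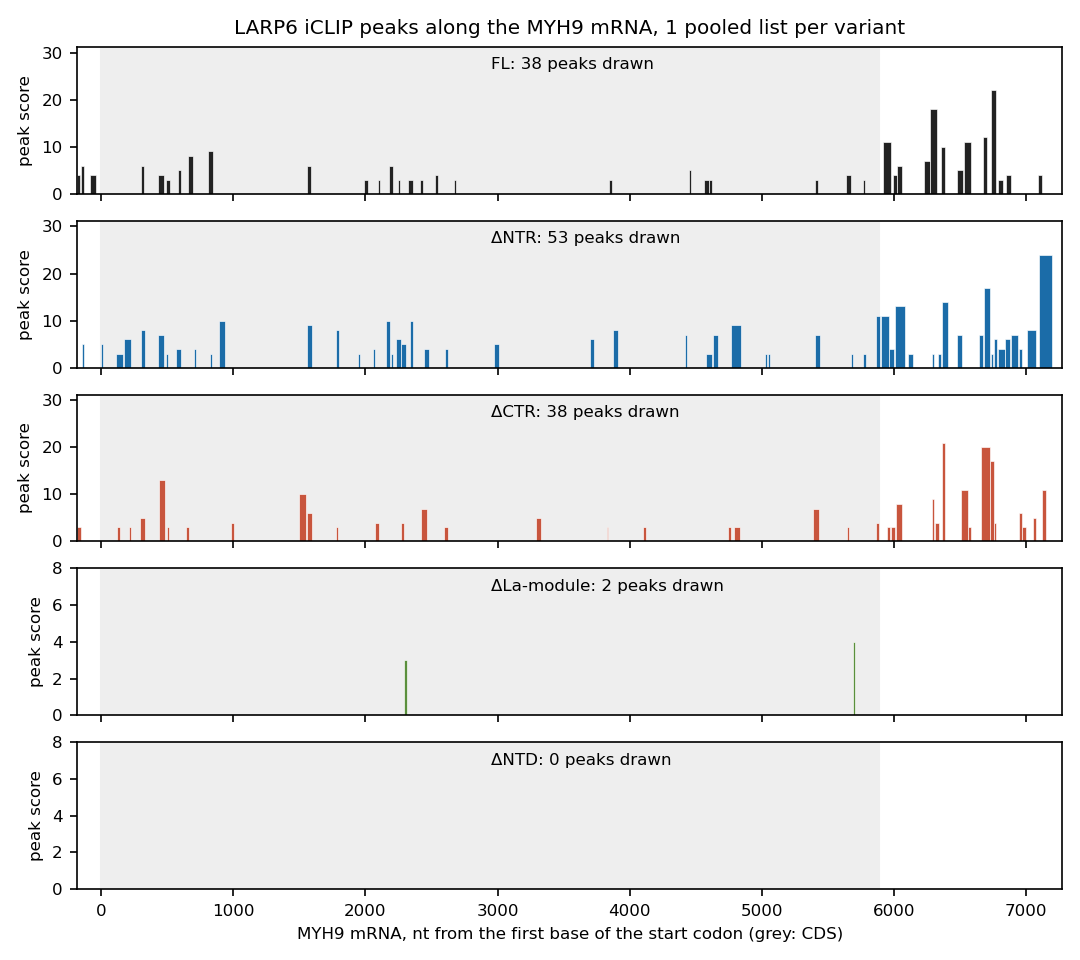
Peaks along the MYH9 mRNA in the 5 lists, drawn as for VIM (horizontal axis, nt from the first base of the start codon, CDS in grey; peaks centred in introns are not drawn). Tall bars gather in the 3'UTR in FL, ΔNTR and ΔCTR, and the ΔNTR panel has more bars in the CDS.

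MYH10, the heavy chain of nonmuscle myosin IIB, had no peak in any list. Its RNA was close to the limit of detection, with 32 reverse-strand counts in the parental library and 21, 34, 31, 48 and 34 in those of FL, ΔNTR, ΔCTR, ΔLa-module and ΔNTD. On the opposite strand of the gene there were 300 to 348 counts, and NDEL1, which overlaps its 3′ end on that strand, had 1559 to 1820 counts of its own. At this level a site on MYH10 was not detectable, and its absence from the lists says nothing of contact with LARP6.

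Among the light chains, MYL6, the essential light chain, had the clearest FL signal, 2 neighbouring 3'UTR peaks with scores of 8 and 11. Its summed score was 19 in FL, and 6, 20, 0 and 3 in ΔNTR, ΔCTR, ΔLa-module and ΔNTD. The ΔNTR ratio to FL was 0.316 (0.103 to 0.822) and that of ΔCTR 1.05 (0.533 to 2.08). The 2 variants differed in place, however, since ΔCTR had 3 of its 5 peaks in the CDS, and at the FL site ΔNTR and ΔCTR both scored 3, a ratio of 0.158 (0.0299 to 0.536) to the 19 of FL.

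The regulatory light chains were at the limit of the peak lists. MYL9 had 2 FL peaks in its 3'UTR, each with a score of 3, and none in the other lists. For MYL12A the FL, ΔNTR and ΔCTR lists held 2 peaks each, with summed scores of 7, 6 and 6, and 1 of the 2 FL peaks overlapped a ΔCTR peak. MYL12B had no FL peak, 2 ΔNTR peaks with a score of 8 and 1 ΔCTR peak with a score of 4. The MYL12A ratios to FL were 0.857 (0.238 to 2.98) for both variants. For MYL12A and MYL12B, neighbouring genes on chromosome 18 with near-identical coding sequence, 42.2 and 51.4% of the 30 nt windows of the CDS had an exact copy elsewhere in the genome or in another transcript, against 23.0% for MYL6, 0.500% for VIM and 1.95% for MYH9. Reads that lie within such windows cannot be placed uniquely, so the counts of peaks in MYL6 and the MYL12 genes are uncertain. The centres of 1 FL peak of MYL12A, of the ΔCTR peak of MYL12B, of the ΔNTD peak of MYL6 and of 1 MYH9 peak in each of FL and ΔCTR lay in such windows.

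Taking the members as a group, the peaks lay in coding sequence more often than those of the lists. In FL, 43 of 69 member peaks were in the CDS (62.3%, 50.5 to 72.8) and 20 in the 3'UTR (29%, 19.6 to 40.6), where 36.5 and 47.7% of all FL peaks were. In ΔNTR the CDS share was 66.7% (56.2 to 75.7) and in ΔCTR 68.8% (56.6 to 78.8), beside 37.0 and 37.1%. VIM set most of this, with 20 of 24 FL peaks in the CDS, 23 of 25 in ΔNTR and 17 of 17 in ΔCTR. Member peaks also had higher raw scores than usual, 26.1% of the FL ones having the lowest score of 3 against 53.7% of the list. VIM and MYH9, which ranked 3 and 18 by PE150 counts in the FL line, held 24 and 39 of the 69 peaks. Per 1000 input counts the members held 2.44 score units in FL, below the 3.68 of the list.

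FL sites in the members were overlapped more often than FL sites at large, in both variants. This was not adjusted for how densely peaks cover a gene. ΔNTR peaks had a summed width of 1068 nt in VIM, of 2154 nt, and 1930 nt in MYH9, of 7451 nt. An overlap is likelier there than in genes with few peaks. Of the 69 FL peaks, 46 (66.7%, 54.9 to 76.6) were overlapped by a ΔNTR peak and 41 (59.4%, 47.6 to 70.2) by a ΔCTR peak, against 35.3 and 37.9% of all FL peaks. The difference from the list depended on the score. Of the 18 member peaks with a score of 3, 44.4% (24.6 to 66.3) were overlapped in ΔNTR and 33.3% (16.3 to 56.3) in ΔCTR, against 17.0 and 18.1% in the list. Of the 29 with scores of 4 to 9 the shares were 65.5% (47.3 to 80.1) and 58.6% (40.7 to 74.5), against 43.5 and 47.7%. Of the 22 with a score of 10 or more, 19 and 18 were overlapped, or 86.4% (66.7 to 95.3) and 81.8% (61.5 to 92.7), against 88.2 and 93.2%. The ΔNTR share was thus above the list in the lower 2 classes, while the intervals of the highest class reached the list in ΔNTR and ended just below it in ΔCTR. Where an overlap of at least 50% of both peaks was asked for, the shares were 34.8 and 33.3%, beside 23.9 and 26.8%.

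In the input, the highest level of each member but MYH10 was at most 1.18 times its lowest over the 6 lines. VIM had 7219 CPM in parental cells and 7058, 7952, 7321, 7786 and 7712 CPM in the FL, ΔNTR, ΔCTR, ΔLa-module and ΔNTD lines. MYH9 had 2949, 3024, 3150, 3052, 3285 and 3196 CPM in the same order. Neither gene had a line that stood apart, the highest level being 1.13 times the lowest for VIM and 1.11 times for MYH9. The light chains ranged from 332 to 357 CPM for MYL6, 245 to 290 for MYL12A, 205 to 232 for MYL12B and 44.3 to 48.7 for MYL9. MYH10 ranged from 0.750 CPM (0.464 to 1.15) in FL to 1.68 (1.24 to 2.23) in ΔLa-module, a 2.24-fold span on 21 and 48 counts. These intervals did not overlap, but the 2 lines were picked as its lowest and highest. Against parental cells both log2 intervals (-1.53 to 0.173 and -0.177 to 1.19) spanned no change.

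Changes against parental cells, on the log2(CPM + 1) scale, ran from -0.03 to 0.14 for VIM, 0.04 to 0.16 for MYH9, -0.05 to 0.06 for MYL6, -0.13 to -0.06 for MYL9, -0.08 to 0.16 for MYL12A, -0.03 to 0.15 for MYL12B and -0.32 to 0.29 for MYH10. No member passed 2-fold in any line. Over all 19696 genes tested, 0.0406% did in FL, and 0.553%, 0.0558%, 0.305% and 0.239% in the ΔNTR, ΔCTR, ΔLa-module and ΔNTD lines. With 1 library per line these differences have no replicate check, and in bulk RNA fewer cells with an mRNA and less of it per cell cannot be told apart.

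**Figure D5:**
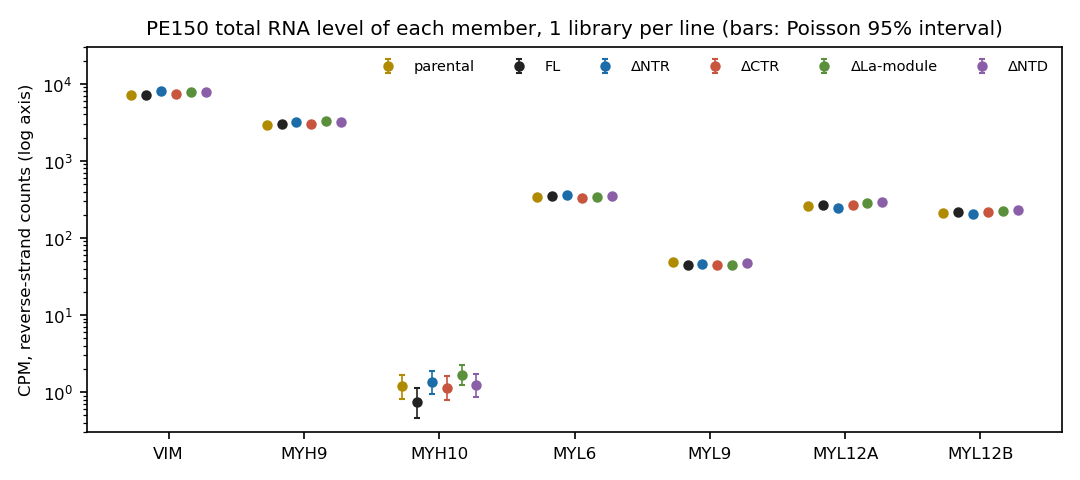
PE150 level of the 7 members in the 6 lines, in CPM on a log axis (points, 1 library each; bars, Poisson 95% intervals). Levels run from 7058 to 7952 CPM for VIM down to 0.750 to 1.68 for MYH10, the latter on 21 to 48 counts.

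Per length of the mRNA, in median CPM per kb over the lines, VIM stood first with 3490, followed by MYL6 with 488, MYH9 with 416, MYL12A with 277, MYL12B with 186, MYL9 with 16.2 and MYH10 with 0.158. VIM counts depend on the strand used, since the unstranded column held 72967 to 81846 where the reverse column held 194113 to 222278. The same holds for MYL12A, with 2545 to 3198 unstranded and 6164 to 8135 reverse-strand counts. The labelled glioblastoma origin was checked on 10 astroglial and glioma markers. Of these, 5 were at 1 CPM or more, led by CD44 at 2182 CPM on average, while GFAP, the intermediate filament protein that defines astrocytes, was at 0.119 CPM on average. Of 10 muscle genes 1 reached 1 CPM, MYH3, and their summed level was 2.29 to 3.34 CPM. Epithelial, haematopoietic and neuronal markers at 1 CPM or more numbered 2 of 5, 0 of 3 and 2 of 3.

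Of 18 other intermediate filament genes taken by name, 9 had at least 10 counts, and 3, 3 and 4 had a peak in FL, ΔNTR and ΔCTR, 0 in ΔLa-module and 1 in ΔNTD. Over all protein-coding genes with 10 counts a peak was present in 36.1, 36.8, 38.6, 3.45 and 1.85%, so 3 of 9 in FL was near the background. LMNB2, a B-type nuclear lamin, had summed scores of 89, 121 and 111 in FL, ΔNTR and ΔCTR, LMNA, the A-type lamin, 39, 67 and 56, and NES, nestin, 3, 0 and 3. Per 1000 counts LMNB2 had 8.98 score units in FL, against 2.48 for VIM, so vimentin mRNA was not the intermediate filament mRNA with the densest FL score for its abundance.

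Of 30 partners and regulators of myosin II, 28 had at least 10 counts, and 20, 19, 20, 5 and 0 had a peak in FL, ΔNTR, ΔCTR, ΔLa-module and ΔNTD, beside the same shares of all genes with 10 counts and 82.8, 85, 87, 11.8 and 5.93% of those at 100 CPM or more. The highest FL scores were those of TPM1, a tropomyosin, with 179, 89 and 159 in FL, ΔNTR and ΔCTR, CDC42BPA, a kinase that acts on myosin II regulation, with 154, 68 and 103, and MYLK, the myosin light chain kinase, with 104, 71 and 145. All 3 scored lower in ΔNTR than in FL, but they were picked by their FL score, which favours a lower score elsewhere. The whole ΔNTR list was at 0.904 of the FL score. Together the 30 genes held 4.21 score units per 1000 FL counts, above the 2.69 of MYH9.

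By score per 1000 counts over the 5 lists, the pattern nearest to VIM among 433 protein-coding genes scoring 50 or more in FL was that of MT-ND4, TUBA1B and LDHA, at Euclidean distances of 0.276, 0.326 and 0.382 on the log2(value + 1) scale. The nearest to MYH9 were ACTG1, AHNAK and EIF4G1, at 0.321, 0.322 and 0.403. All 6 are abundant mRNAs, and ACTG1, which encodes the cytoplasmic actin that MYH9 filaments pull on, had scores of 364, 417 and 424 in FL, ΔNTR and ΔCTR.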

How the data were processed

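Members and gene lists were chosen with earlier results of these data known. As the study's methods describe, the authors trimmed and aligned iCLIP reads (STAR, GRCh38 with GENCODE V42), removed duplicates by molecular identifier, called peaks per replicate with Clippy, merged them, summed the score of each peak over replicates and subtracted parental peaks with bedtools. The mode of that subtraction is not given in the sources used here. The submitters' processing notes name STAR 2.7.10b, bedtools 2.30.0 and Trim Galore 0.6.10. The submitters' notes also name Bowtie2 and UMI-tools. The deposited score is a whole number that was not scaled to sequencing depth, which is unknown for iCLIP here. The deposited input counts are STAR counts per gene, of which the reverse-strand column was used for PE150.

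Here, the region of a peak was that of its centre, CDS first, then 5'UTR, 3'UTR, ncRNA and intron (GENCODE 44, GRCh38, bedtools 2.31.1), and 62625 of 62703 gene identifiers matched. Overlap meant at least 1 nt on the same strand. CPM used TMM factors (edgeR 4.0.16), differences a pseudocount of 1, and genes had at least 10 counts in 1 library. Intervals of peak counts are exact Poisson, of region and overlap shares Wilson, of score shares and ratios exact binomial. Named were all 7 members, the highest FL peak of each (3 for those with 10 or more peaks), the 3 nearest genes and the 3 top genes of a list. Scripts were tested on simulated data. Other settings tried were a score above 3, overlap of 50%, other transcripts, pseudocounts, totals and inputs, and DESeq2 1.42.0 size factors.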

Additional observations from a re-analysis of the deposited data

Results flagged for a closer look

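The SE50 libraries, which served only as an alternative input, held a higher CPM of VIM than the parental SE50 library in 3 lines, with Poisson intervals that did not overlap. VIM had 482 counts in ΔNTR, 551 in ΔCTR and 753 in ΔNTD, against 511 in parental cells, which in CPM made ratios of 1.34, 1.54 and 1.28. In FL and ΔLa-module the ratios were 0.930 and 1.00. MYH9 had 105 SE50 counts in ΔNTD against 55, a ratio of 1.66 in CPM, and 42, 38, 60 and 26 in FL, ΔNTR, ΔCTR and ΔLa-module. The light chains had fewer SE50 counts, and in plain CPM ratios MYL12A was at 0.453 in ΔCTR and 0.287 in ΔLa-module, from 7 and 4 counts against 22, and MYL12B at 2.14 and 5.52, from 3 and 7 counts against 2. The PE150 libraries of the same lines gave differences of at most 0.16 on the log2 scale for VIM and MYH9. In parental cells VIM was at 50.9 CPM in SE50 against 7219 in PE150, so the SE50 ratios do not stand for mRNA levels.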

How the results depend on the processing

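No paired analysis was possible because each variant has 1 pooled list and each line 1 input library, which also left no replicate to leave out. Among the alternatives, all 18 region shares stayed inside the counting interval of their value. Peaks with a score above 3 numbered 42 in place of 64 for ΔCTR, 4 in place of 14 for ΔLa-module and 2 in place of 4 for ΔNTD, and the members' score share was then 0.872% for FL, 1.14% for ΔNTR, 0.579% for ΔCTR and 3.26% for ΔNTD. An overlap of 50% of both peaks gave 34.8% for ΔNTR and 33.3% for ΔCTR. With SE50 input the log2 change of VIM was -0.54 for ΔNTR and -1.42 for ΔCTR, that of MYH9 for ΔCTR was -0.73, and 99 genes were at least 2-fold lower in ΔCTR in place of 54. The cause was not tested. SE50 held 325 to 753 counts of VIM where PE150 held 194113 to 222278, and 26 to 105 of MYH9 against 79164 to 93772. It is thus no like measure of these mRNAs. No member passed 2-fold against parental cells under any of the 6 input alternatives on the log2 scale with its pseudocount. Plain SE50 ratios of MYL12A and MYL12B, on 2 to 22 counts, did in ΔCTR and ΔLa-module. That of MYH10 did in ΔNTD, at 0.218 on 1 count against 4, and MYH10 had no SE50 count in the other variant lines. A pseudocount of 0.1 CPM moved the number of all genes past 2-fold from 8 to 109 per line to 888 to 1302, and SE50 to 123 to 238.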
